A study of Mus musculus with 12 samples.

Results

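The Slc16 genes encode the monocarboxylate transporter (MCT) family, and their mRNA was followed in mouse embryonic stem cells (ESCs) after YAP was lowered or raised. The tables listed 14 Slc16 genes among 24480 genes. The 9 members described here are Slc16a1, Slc16a3, Slc16a6, Slc16a7, Slc16a9, Slc16a10, Slc16a11, Slc16a13 and Slc16a14, matched by symbol. They were chosen on the values of both YAP comparisons, because Slc16a9 was lower upon YAP knockdown while Slc16a3 was higher both upon knockdown and upon overexpression. Their values in those 2 comparisons are therefore given as a description, without a test.

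Cells were E14Tg2a ESCs, an established feeder-free mouse line kept with leukemia inhibitory factor and serum in a medium that also contained sodium pyruvate, and all of them were transiently transfected with a lipid reagent. In the knockdown experiment they received siRNAs against mYAP (YAP KD) or scrambled siRNAs (CTR KD). For overexpression, cells were given a plasmid encoding mYAP under the CAG promoter (YAP OE) or, per the labels, a plasmid encoding GFP (CTR OE), which the study elsewhere calls an empty vector. Each of the 4 groups had 3 libraries, no genotype differed between groups, and no step that selected the transfected cells is given in the sources used here.

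MCT proteins carry small carboxylate molecules across the plasma membrane, and the best studied of them move lactate, pyruvate or ketone bodies together with a proton. They need a small glycoprotein partner, basigin or embigin, to reach the cell surface. Other members of the family carry different cargo, such as aromatic amino acids, thyroid hormones or carnitine, and the cargo of several is poorly known. ESCs are known for a high rate of glycolysis, and they release lactate.

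Libraries held from 4.29e+07 to 5.72e+07 expected counts. Levels are given as CPM, the reads of a gene relative to the size of its library, scaled by TMM, a factor that corrects for differences in library composition, and as CPM per kilobase of effective transcript length where different genes are compared. Yap1 was at 116, 135 and 125 CPM in the CTR KD libraries and at 58.5, 54.9 and 56.6 CPM in the YAP KD libraries. It was at 134, 130.2 and 134 CPM in CTR OE and at 277, 256 and 244 CPM in YAP OE. Every library followed its label. The 6 ESC markers summed to between 3143 and 3444 CPM over all libraries, and 5 fibroblast markers to between 2.50 and 4.03 CPM. Expression was measured in bulk RNA, so fewer cells that use a gene and less of its RNA per cell cannot be told apart.

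The windows around the transcription start of the 3 members that the description turns on are shown first, because Slc16a3, Slc16a9 and Slc16a1 differ in which short motifs they hold. Each window runs from 250 bases before to 50 bases after a start that RefSeq annotates in GRCm38.p6 (mm10), and 6 of the 9 members had a window in the table used. All 3 genes lie on the plus strand, at chr11:120948817-120949116 for Slc16a3, chr10:70245026-70245325 for Slc16a9 and chr3:104638414-104638713 for Slc16a1. The Slc16a3 start lies within the gene, downstream of its outermost start. Capitals mark the core of the hypoxia response element, which is ACGTG in some sites while others read GCGTG instead, and the E-box, whose letters are CACGTG. Both strands were searched, so the reverse complement of a motif is also in capitals.
Slc16a3: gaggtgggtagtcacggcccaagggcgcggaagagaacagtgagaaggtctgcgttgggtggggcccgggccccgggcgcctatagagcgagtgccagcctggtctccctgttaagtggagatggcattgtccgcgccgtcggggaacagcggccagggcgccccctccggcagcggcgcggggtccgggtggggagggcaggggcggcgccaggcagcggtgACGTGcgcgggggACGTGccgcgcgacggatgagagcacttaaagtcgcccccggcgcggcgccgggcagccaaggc
Slc16a9: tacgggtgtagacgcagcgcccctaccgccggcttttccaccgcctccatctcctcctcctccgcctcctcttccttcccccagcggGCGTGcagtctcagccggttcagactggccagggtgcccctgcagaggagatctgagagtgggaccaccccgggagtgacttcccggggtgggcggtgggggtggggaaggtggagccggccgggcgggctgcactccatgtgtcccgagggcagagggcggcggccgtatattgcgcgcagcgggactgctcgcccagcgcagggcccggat
Slc16a1: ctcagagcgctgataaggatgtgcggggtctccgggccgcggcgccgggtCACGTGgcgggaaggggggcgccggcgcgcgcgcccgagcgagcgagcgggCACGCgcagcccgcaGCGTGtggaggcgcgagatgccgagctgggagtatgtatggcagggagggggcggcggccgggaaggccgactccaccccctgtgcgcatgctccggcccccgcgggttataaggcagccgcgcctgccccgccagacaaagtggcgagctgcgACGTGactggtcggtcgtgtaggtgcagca
Slc16a3 held ACGTG at 2 places, with first bases 27 and 14 bases before the start. Slc16a9 held 1 GCGTG and no ACGTG. Slc16a1 held a CACGTG, whose letters contain ACGTG on both strands, a further ACGTG just after the start and 2 GCGTG. Among the 6 member windows, 5 held a hypoxia response core, against 43.8% of 32851 windows of the same length. Taken by itself, ACGTG was in 19.6% of all windows. The corresponding share was 32.4% for GCGTG and 7.15% for the E-box. GGAATG, the core that TEAD factors bind, was in 0 of the 6 windows and in 14.7% of all windows. A match is a run of letters and says nothing of whether a factor binds there.

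Slc16a1, the gene of the widely expressed lactate and pyruvate transporter MCT1, had the highest level of the family in every group. In CTR KD it reached 31.1 ± 0.765 CPM per kilobase (SD, n = 3), which placed it at percentile 83.6 of the genes that passed the filter on low counts. Slc16a3 followed at 6.76 ± 0.636, Slc16a6 at 2.67 ± 0.227 and Slc16a9 at 2.18 ± 0.0514 CPM per kilobase, and the libraries of these 4 genes did not overlap. Slc16a13 at 1.37 ± 0.121 and Slc16a10 at 0.898 ± 0.0478 CPM per kilobase came next, with the non-member Slc16a4 (1.28 ± 0.330) overlapping both. Slc16a11, Slc16a14 and Slc16a7 lay between 0.150 and 0.239 CPM per kilobase. Each of these 3 genes had only 7 to 30 counts in a library, so counting error alone spreads their values.

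**Figure D1:**
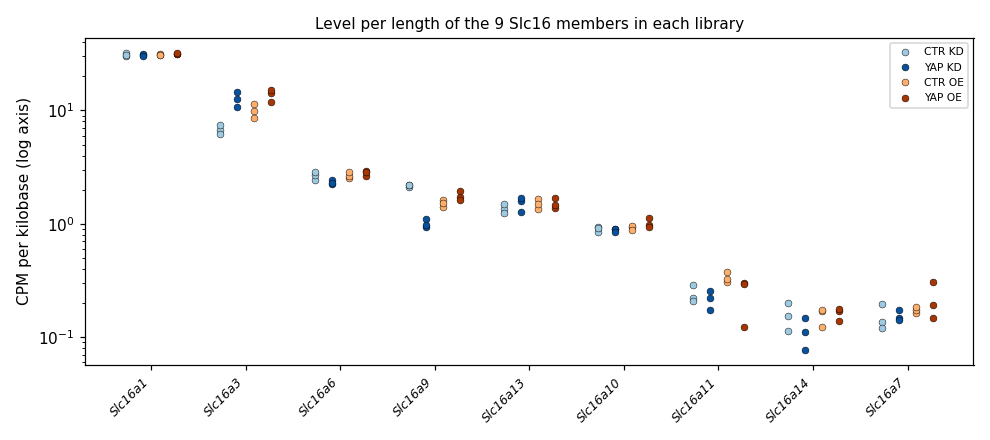
Level of the 9 Slc16 members in CPM per kilobase of effective length (log axis), with 1 point per library and 3 libraries per group, ordered by the CTR KD mean. Slc16a1 lies near 31 CPM per kilobase in all groups, Slc16a3 moves from 6.76 in CTR KD to 12.6 in YAP KD, and Slc16a9 from 2.18 to 1.01.

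Slc16a3 encodes MCT4, the transporter known for lactate export from highly glycolytic cells. It was at 15.2, 14.2 and 17.2 CPM in CTR KD and at 24.4, 33.0 and 29.2 CPM in YAP KD. All YAP KD libraries lay above all CTR KD libraries, and the lowest YAP KD library was replicate 1. The mean was 1.86 times the control mean (log2 fold change 0.90, SE 0.108). In the overexpression experiment Slc16a3 was at 22.4, 19.6 and 26.1 CPM in CTR OE and at 27.1, 32.6 and 34.4 CPM in YAP OE. The groups again did not overlap, but YAP OE replicate 1 and CTR OE replicate 3 lay close together. The mean ratio was 1.38 (log2 fold change 0.47, SE 0.0918). Slc16a3 was thus above its control both where YAP was lowered and where it was raised. All of its counts were whole numbers, as they are where no read is divided between genes. Its span at chr11:120948484-120959000 overlaps that of Csnk1d at its end, and Csnk1d itself had log2 fold changes of 0.05 (SE 0.0599) and -0.04 (SE 0.0377).

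Slc16a1 was at 135.9, 129.9 and 130.9 CPM in CTR KD and at 132, 133 and 129.7 CPM in YAP KD. The groups overlapped, with a log2 fold change of -0.0044 (SE 0.0392). In CTR OE it was at 133, 133 and 131 CPM and in YAP OE at 134, 136 and 138 CPM. The YAP OE libraries all lay above the CTR OE libraries, at a log2 fold change of 0.04 (SE 0.0364). Slc16a7, the gene of MCT2, a carrier with high affinity for pyruvate, was barely detected. It had between 13 and 30 counts in a library, and its log2 fold changes were 0.07 (SE 0.276) upon YAP KD and 0.27 (SE 0.285) upon YAP OE.

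The ratio of the 2 main lactate carriers was lower in the YAP libraries of both experiments. Slc16a1 was 4.62 ± 0.431 times as high as Slc16a3 per kilobase in CTR KD and 2.48 ± 0.369 times in YAP KD. In CTR OE the ratio was 3.18 ± 0.473, and in YAP OE it was 2.35 ± 0.269. The ratios of the KD groups did not overlap (4.13 to 4.94 and 2.17 to 2.89), and those of the OE groups did not either (2.70 to 3.64 and 2.15 to 2.66). As a share of the summed level of the 14 genes per kilobase, Slc16a3 was 14.2% ± 1.10 in CTR KD, 24.1% ± 2.62 in YAP KD, 19.5% ± 2.21 in CTR OE and 24.6% ± 2.03 in YAP OE. The share of Slc16a1 was 65.2% ± 1.30, 59.3% ± 2.26, 61.2% ± 2.31 and 57.4% ± 1.63 in the same order. On average Slc16a3 took a larger share and Slc16a1 a smaller share in YAP KD and YAP OE than in their controls. Slc16a3 was chosen for being higher in both experiments, so the ratios and shares restate that choice and are no separate result. The sum itself was 47.7 ± 1.14 CPM per kilobase in CTR KD and 52.3 ± 2.02 in YAP KD, and 50.8 ± 1.57 in CTR OE and 55.6 ± 2.19 in YAP OE.

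Slc16a9 encodes MCT9, which has been linked to carnitine transport. It was at 7.20, 7.45 and 7.54 CPM in CTR KD and at 3.75, 3.19 and 3.28 CPM in YAP KD. The YAP KD libraries all lay below the CTR KD libraries, at 46.1% of the control mean (log2 fold change -1.12, SE 0.0848). For comparison, Yap1 itself was at 45.2% of its control. In CTR OE Slc16a9 was at 5.46, 4.77 and 5.14 CPM and in YAP OE at 5.81, 5.54 and 6.57 CPM. The YAP OE libraries lay above all CTR OE libraries, with CTR OE replicate 1 just below YAP OE replicate 2, and the log2 fold change was 0.23 (SE 0.0908). Slc16a9 was thus lower upon YAP KD, where Slc16a3 was higher, and its mean was above the control upon YAP OE. It has a single annotated transcript, and its counts, from 140 to 395 in a library, were all whole.

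Markers of other cell types were read beside these values. The 5 trophoblast markers summed to between 54.7 and 61.5 CPM in CTR KD and to between 75.4 and 84.9 CPM in YAP KD, of which Tfap2c, a factor that ESCs also express, made up 57.5 and 79.5 CPM, respectively. Their sum was 51.4 to 56.0 CPM in CTR OE and 47.4 to 51.0 CPM in YAP OE, where Cdx2 was at 0.628 CPM against 0.149 CPM and Gata3 at 1.04 CPM against 0.285 CPM. The trophoblast sum was thus higher in YAP KD than in CTR KD, without overlap, and lower in YAP OE than in CTR OE. Most of it was Tfap2c, at 47.7 CPM in YAP OE and 53.3 CPM in CTR OE. Cdx2, Gata3 (edgeR adjusted p = 0.00159 and 0.000886) and Hand1 (0.377 against 0.165 CPM, not called) went the other way upon YAP OE. Elf5 was at 0.0660 against 0.0769 CPM, with overlap. Upon YAP KD Tfap2c was the 1 trophoblast marker that passed the filter on low counts. It was called as higher (log2 fold change 0.47, SE 0.0570, edgeR adjusted p = 0.00217). The fibroblast markers summed to 2.50 to 2.79 CPM in CTR KD, 3.12 to 3.80 in YAP KD, 3.42 to 3.81 in CTR OE and 3.60 to 4.03 in YAP OE. The 5 primitive endoderm markers stayed between 3.60 and 5.81 CPM. No marker of these lists was at 0 in a whole group, and their part in the Slc16a3 and Slc16a9 values was not tested.

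**Figure D2:**
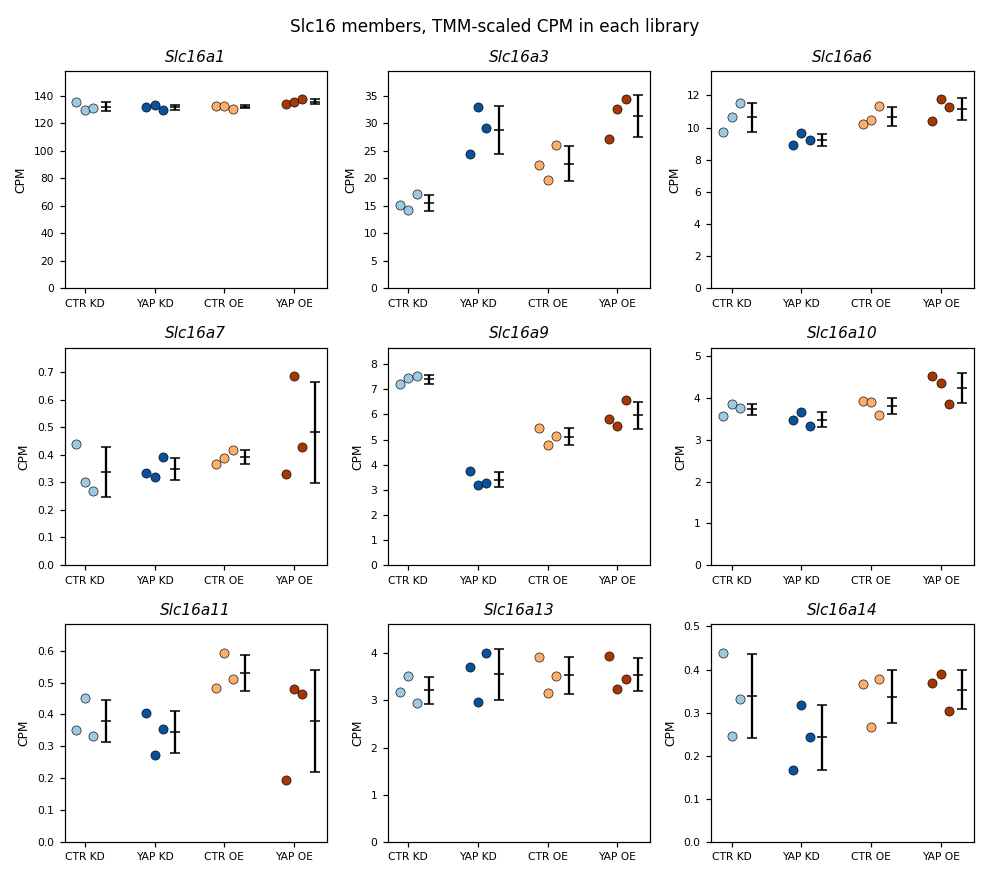
TMM-scaled CPM of the 9 Slc16 members in each of the 12 libraries (points), with the group mean and SD (bars, n = 3), each panel starting at 0. Slc16a3 is higher in YAP KD than in CTR KD and in YAP OE than in CTR OE, Slc16a9 is lower in YAP KD at 46.1% of its control, and Slc16a1 is level.

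The remaining members moved less or had few counts. Slc16a10 encodes TAT1, a carrier of aromatic amino acids, and had 3.73 ± 0.138 CPM in CTR KD and 3.48 ± 0.171 in YAP KD, then 3.82 ± 0.187 in CTR OE and 4.25 ± 0.356 in YAP OE. Its groups overlapped in both experiments, at log2 fold changes of -0.10 (SE 0.0897) and 0.15 (SE 0.0983). Slc16a6, the gene of MCT7, which has been described as a ketone body carrier, was at 9.72, 10.7 and 11.5 CPM in CTR KD and at 8.89, 9.63 and 9.24 CPM in YAP KD. All its YAP KD libraries were lower than all CTR KD libraries, by a narrow margin between YAP KD replicate 2 and CTR KD replicate 1, and the log2 fold change was -0.20 (SE 0.0753). Upon YAP OE its groups overlapped (log2 fold change 0.06, SE 0.0676). Slc16a6 was the only member whose counts were not whole, in 11 of 12 libraries, so some of its reads were divided with another gene, and it overlaps Arsg on chromosome 11.

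Slc16a11 and Slc16a13 are neighbours, 375 bases apart on chromosome 11, and the cargo of the first is still debated. Slc16a13 was the better expressed of the pair, with 130 to 215 counts in a library against 10 to 29 for Slc16a11. Its groups overlapped in both experiments, at log2 fold changes of 0.15 (SE 0.128) upon YAP KD and 0.01 (SE 0.112) upon YAP OE. Slc16a11 had a log2 fold change of -0.15 (SE 0.263) upon YAP KD. In CTR OE it was at 0.483, 0.593 and 0.512 CPM and in YAP OE at 0.194, 0.480 and 0.463 CPM, so the YAP OE libraries were all lower, most of all replicate 1, which held 10 counts (log2 fold change -0.48, SE 0.295). Slc16a14, a member without a well known cargo, had 7 to 20 counts and log2 fold changes of -0.45 (SE 0.337) and 0.05 (SE 0.272).

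All 9 members passed the filter on low counts in each comparison. Upon YAP KD, 2 of them, Slc16a3 and Slc16a9, had an adjusted p-value under 0.05 in the edgeR quasi-likelihood fit across all genes, in which 5.49% of 14606 genes were called. Members whose groups did not overlap were 3 of 9, against 25.7% of all genes tested. Upon YAP OE 1 member, Slc16a3, was called, against 2.13% of 14804 genes, and 4 members had groups that did not overlap, against 18.2%. The members were picked on these comparisons, so nothing is read from those counts. The call of Slc16a3 upon YAP OE was missed without CTR OE replicate 1 (log2 fold change 0.45) or replicate 2 (0.37), with DESeq2 (0.46), in a fit of all 12 libraries (0.47) and on the TPM scale (0.48 and 0.42). The median log2 fold change of the members was -0.10 upon YAP KD, with 3 of 9 above 0, and 0.06 upon YAP OE, with 8 of 9 above 0. Over all genes tested the medians were 0.0058 and -0.0025, and the middle 50% of genes lay between -0.08 and 0.09 upon YAP KD and between -0.06 and 0.06 upon YAP OE.

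**Figure D3:**
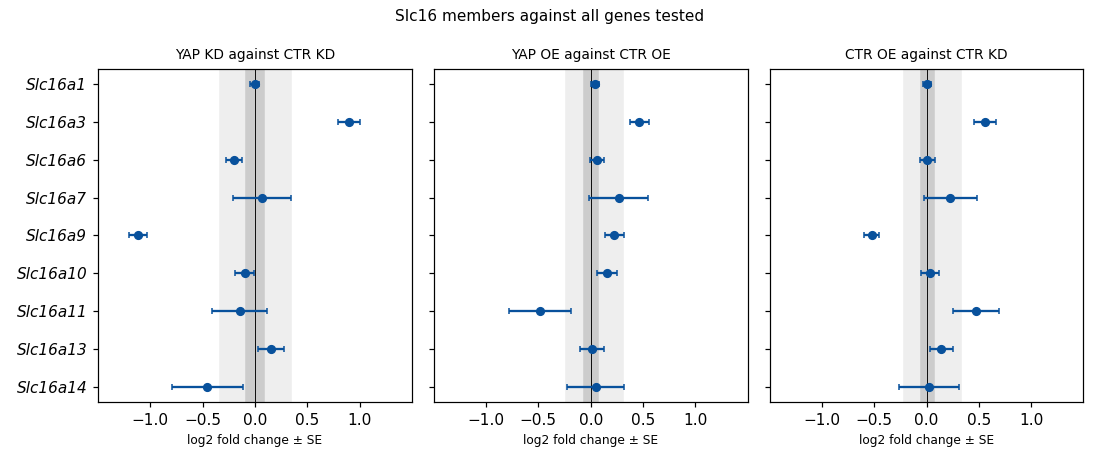
Log2 fold change ± SE (edgeR) of the 9 members in 3 comparisons, with the range from the 5th to the 95th percentile of all genes tested in light grey and the middle 50% in dark grey. Slc16a3 lies right of the light band at 0.90, 0.47 and 0.56, Slc16a9 lies left of it at -1.12 upon YAP KD and at -0.52 between the controls, and Slc16a1 stays near 0.

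The control groups were compared with each other as well. This comparison shares all its libraries with those that chose the members. A gene picked for a low or a high level in CTR KD is pushed the same way in it as upon YAP KD. The choice of Slc16a3 also favoured a low level in CTR OE, which pushes its value the opposite way. The members' values in this comparison are therefore given as a description, without a test. The effects of plasmid, siRNA, the plasmid's insert and the experiment itself cannot be told apart in it. Slc16a3 was higher in CTR OE than in CTR KD, with 22.7 ± 3.26 CPM against 15.5 ± 1.52 CPM (0.56 on the log2 scale, SE 0.104). Every CTR OE library lay above every CTR KD library. Slc16a9 was lower, at 5.12 ± 0.348 CPM against 7.40 ± 0.176 CPM, again without overlap (log2 fold change -0.52, SE 0.0737). The edgeR fit called these 2 of 9 members and 0.733% of 14744 genes, and 3 members had groups that did not overlap, beside 16.4% of all genes, and nothing is read from either count. The third was Slc16a11 (log2 fold change 0.47, SE 0.223). The log2 fold changes of the other 6 members lay between 0.0039 for Slc16a1 and 0.23 for Slc16a7. The median of the 9 members was 0.04, beside 0.0061 over all genes tested.

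Both calls between the controls depended on single libraries. Slc16a3 missed the threshold without CTR KD replicate 1 (0.54) or replicate 3 (0.63) and without CTR OE replicate 1 (0.56) or replicate 3 (0.44). Slc16a9 missed it without CTR KD replicate 3 (-0.51) and without CTR OE replicate 2 (-0.48) or replicate 3 (-0.53). The direction held in each of these fits, but they share the libraries that served in the choice, so nothing is read from that.

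The mean transcript length, which follows the estimated mix of isoforms, was a measure that did not enter the choice. It could vary only for the 3 members with several transcripts, since 6 members have 1 transcript each. Upon YAP KD 0 of 4294 genes tested (0%) passed with limma, with 240 at an unadjusted p under 0.05. Slc16a10 averaged 4112 ± 88.2 bases in YAP KD and 4328 ± 69.9 bases in CTR KD (limma adjusted p = 0.849, unadjusted p = 0.0197). Slc16a3 averaged 2460.1 ± 9.83 against 2469 ± 9.64 bases (limma adjusted p = 0.987). Slc16a6 averaged 4169 ± 4.24 against 4166 ± 0.774 bases (limma adjusted p = 0.987). Upon YAP OE 1 of 4352 genes passed (0.023%), which was Yap1, and the 3 members were at 2468 against 2464 bases (Slc16a3), 4164 against 4167 (Slc16a6) and 4378 against 4322 (Slc16a10), with limma adjusted p-values of 0.996, 0.913 and 1. No member passed the test of length, and Slc16a9 has a single transcript length.

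The partners that bring MCT proteins to the membrane were read next, with the enzymes that make and use lactate and pyruvate. Bsg, the gene of basigin, was at 184 ± 5.42 CPM in CTR KD and 197 ± 7.34 in YAP KD (log2 fold change 0.10, SE 0.0436, edgeR adjusted p = 0.227). Upon YAP OE the value was 0.11 (SE 0.0441, edgeR adjusted p = 0.280). Emb, the gene of embigin, was at -0.15 upon YAP KD (SE 0.0397, edgeR adjusted p = 0.0613) and at 0.05 upon YAP OE (SE 0.0375, edgeR adjusted p = 0.677). Neither partner passed the test. Bsg was higher without overlap in both experiments, and Emb was lower without overlap upon YAP KD and higher without overlap upon YAP OE. Groups did not overlap for 25.7% of all genes tested upon YAP KD and 18.2% upon YAP OE. Slc16a3, a client of basigin, was at 1.86 and 1.38 times its control.

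Of the list on monocarboxylate and pyruvate handling, 19 genes were tested upon YAP KD, of which 4 rose and 0 fell, beside 5.49% of all genes called. Ldha, the lactate dehydrogenase subunit that favours lactate, rose by 0.62 on the log2 scale (SE 0.0758, edgeR adjusted p = 0.00228), and the glucose transporter gene Slc2a1 with 0.33 (SE 0.0441, edgeR adjusted p = 0.00335). Pkm, a pyruvate kinase, rose by 0.24 (edgeR adjusted p = 0.00874) and Pdk1, an inhibitor of pyruvate dehydrogenase, by 0.21 (edgeR adjusted p = 0.0248). Pkm missed the threshold without CTR KD replicate 3 (0.24) or YAP KD replicate 2 (0.21). Pdk1 missed it without CTR KD replicate 1 (0.21) or replicate 3 (0.24) and without YAP KD replicate 2 (0.20) or replicate 3 (0.20). With a library left out, 2 (without CTR KD replicate 3 or YAP KD replicate 2) to 7 genes (without CTR KD replicate 2) of the list were called, and its median was -0.02, beside 0.0058 for all genes, so that the median and the calls differed in sign. The alternative fits called 0 genes of the list on both TPM scales, 2 with the replicate number as a block, 7 with upper-quartile factors and 8 in a fit of all 12 libraries. Ldhb, the other main subunit, was at -0.07 (SE 0.0431), and the mitochondrial pyruvate carrier genes Mpc1 and Mpc2 were at -0.04 and -0.14, none of them called. Slc2a3, also a glucose transporter gene, was at 1195 CPM in CTR KD, where Slc2a1 was at 199 CPM. It was lower in YAP KD without overlap (-0.19, SE 0.0543, edgeR adjusted p = 0.0831). Pdha1 (-0.15) and Pdk4 (-0.25) were also lower without overlap and not called. Of the 19 genes, 9 had a log2 fold change above 0.

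Upon YAP OE 2 of the same 19 genes rose and 0 fell, beside 2.13% of all genes called, with a median of 0.07 beside -0.0025 for all genes. They were Ldha (0.28, SE 0.0617, edgeR adjusted p = 0.0265) and Slc2a1 (0.20, SE 0.0448, edgeR adjusted p = 0.0276). Neither held in every left-out fit, and 0 genes of the list were called without CTR OE replicate 1, where Ldha was at 0.28 and Slc2a1 at 0.21, without CTR OE replicate 2 (0.22 and 0.17) or without YAP OE replicate 3 (0.20 and 0.18). On both TPM scales 0 were called, and 1 in a fit of all 12 libraries. Slc2a1 also missed it without CTR OE replicate 3 (0.22) and YAP OE replicate 2 (0.18). Slc2a3 was higher in YAP OE without overlap and was not called (0.16, SE 0.0467, edgeR adjusted p = 0.108). Between the controls Ldha was higher in CTR OE (0.39, SE 0.0568, edgeR adjusted p = 0.0160), and Mpc1 was lower (-0.48, SE 0.0640, edgeR adjusted p = 0.0122). Ldha missed the threshold there without CTR KD replicate 3 (0.43) and CTR OE replicate 1 (0.39) or replicate 3 (0.34). Mpc1 missed it without CTR KD replicate 3 (-0.45) and without any of the CTR OE replicates (-0.46, -0.48 and -0.51).

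Slc16a3 is known as a gene induced in low oxygen, so a list of 12 hypoxia-inducible genes was read beside it. The list was written with earlier results of these samples known, and its direction is not independent evidence. Upon YAP KD 7 of the 12 rose and 0 fell, beside 5.49% of all genes called, with a median log2 fold change of 0.48. Ndufa4l2, a mitochondrial protein gene, had the largest value among them at 2.21 (SE 0.292, edgeR adjusted p = 0.0030), Egln3, a prolyl hydroxylase of HIF, rose by 0.83 (edgeR adjusted p = 0.00918), and Pgk1, a glycolytic kinase, by 0.52 (edgeR adjusted p = 0.00287). Bnip3, P4ha1, Higd1a and Ero1l were the other 4, and Bnip3 (0.67) missed the threshold without YAP KD replicate 2 (0.57) or replicate 3 (0.64), while Ero1l (0.23) missed it without any 1 of the 6 libraries (0.18 to 0.26). Of the 5 genes not called, Car9 (-0.22) and Vegfa (-0.04) were below 0, with groups that overlapped. Egln1 (0.23), Ankrd37 (0.67) and Adm (0.95) were above 0. With each library left out in turn, 5 to 7 of the 12 were called, and in the other alternative fits 5 to 8, apart from the TPM scales, where Ndufa4l2 was the 1 gene called.

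Upon YAP OE 5 of the 12 hypoxia-inducible genes rose and 0 fell, beside 2.13% of all genes called, with a median of 0.27. Ndufa4l2 (1.77, SE 0.279, edgeR adjusted p = 0.00259) and Bnip3 (0.71) were called in each fit with a library left out. Pgk1 (0.35, edgeR adjusted p = 0.00764) missed the threshold without CTR OE replicate 2 (0.29). Egln3 (0.63) missed it without CTR OE replicate 1 (0.63) or replicate 2 (0.51) and without YAP OE replicate 2 (0.56) or replicate 3 (0.54). Ero1l (0.19) missed it in every left-out fit but that without YAP OE replicate 1, at 0.15 to 0.20. Of the 12 genes, 2 were called without CTR OE replicate 2 and 3 without CTR OE replicate 1, YAP OE replicate 2 or YAP OE replicate 3. The count was 9 without a filter, 3 in a fit of all 12 libraries and 2, Ndufa4l2 and Bnip3, on both TPM scales. Between the controls, where Slc16a3 was higher by 0.56, 0 of the 12 passed with edgeR and 0 with DESeq2, with 2 at an unadjusted p under 0.05 and a median of 0.11.

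**Figure D4:**
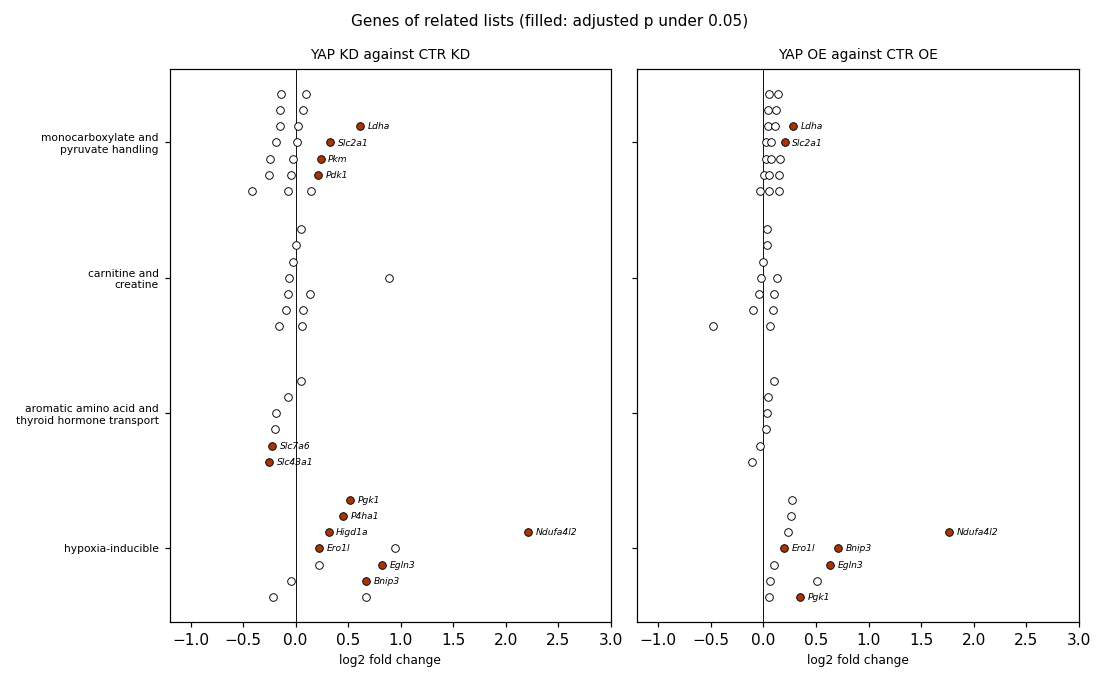
Log2 fold change of each tested gene of the 4 related lists, spread vertically within a list for legibility, with YAP KD against CTR KD on the left and YAP OE against CTR OE on the right. Filled points passed the edgeR test (adjusted p under 0.05): 7 of 12 hypoxia-inducible genes upon YAP KD and 5 upon YAP OE, 4 and 2 of 19 genes of monocarboxylate and pyruvate handling, and 0 of 11 carnitine and creatine genes in both.

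Because Slc16a9 has been linked to carnitine and creatine, 11 genes that carry, make or use them were tested. None passed: 0 of 11 were called by the main edgeR fit or by DESeq2 in any of the 3 comparisons, with 3 (YAP KD), 2 (YAP OE) and 3 (between the controls) at an unadjusted p under 0.05. The alternative fits upon YAP KD called 0 to 1 gene of the list, and 0 with a library left out. The median log2 fold change was 0.0031 upon YAP KD and 0.03 upon YAP OE. Slc22a5, the main carnitine importer, was at 6.02 ± 0.485 CPM in CTR KD and 5.77 ± 0.303 in YAP KD (log2 fold change -0.06, SE 0.0857, edgeR adjusted p = 0.772), whereas Slc16a9 was at 46.1% of its control in the same libraries. Gamt, which makes creatine, had the highest log2 fold change of the list upon YAP KD at 0.89 (SE 0.229), and missed the threshold (edgeR adjusted p = 0.0549).

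For Slc16a10, a list of genes on the transport of aromatic amino acids and thyroid hormones was read. Upon YAP KD 0 of 6 rose and 2 fell, beside 5.49% of all genes called, with a median of -0.19 beside 0.0058 for all genes. They were Slc43a1 (-0.25, SE 0.0559, edgeR adjusted p = 0.0316) and Slc7a6 (-0.22, SE 0.0482, edgeR adjusted p = 0.0269), both of which carry large neutral amino acids. Both missed the threshold in every fit with a library left out except that without CTR KD replicate 2, at -0.22 to -0.27 for Slc43a1 and -0.20 to -0.24 for Slc7a6. They also missed it with the replicate number as a block, and Slc43a1 missed it with DESeq2 (DESeq2 adjusted p = 0.0553). Upon YAP OE and between the controls 0 of the 6 passed with edgeR and 0 with DESeq2, with 1 at an unadjusted p under 0.05 in each.

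The genes most like Slc16a3 and Slc16a9 were sought over the 12 libraries, each log2 level taken relative to the mean of its own experiment, among 12395 genes with at least 50 counts on average. For Slc16a3 they were Pgk1 (Pearson r = 0.991), Ldha (0.989) and Tpi1, the gene of triose-phosphate isomerase (0.978). The 3 genes rose upon YAP KD by 0.52, 0.62 and 0.55, in the same libraries in which they were picked for following Slc16a3. Upon YAP OE Tpi1 was at 0.21 (edgeR adjusted p = 0.116) and was not called. Within each of the 4 groups the order of the 3 libraries was the same for Slc16a3, Ldha and Pgk1, an observation made after the values were seen. In YAP KD, for instance, Ldha was at 268, 336 and 307 CPM and Slc16a3 at 24.4, 33.0 and 29.2 CPM. Tpi1 and Slc2a1 each had the order of Slc16a3 in 3 of the 4 groups. Ldha, Pgk1 and Tpi1 were picked for following Slc16a3 over these same libraries, so their order is no separate evidence.

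For Slc16a9 the most alike were Kbtbd11 (r = 0.986), Scrn1 (0.983) and Fabp3 (0.979), the last a fatty acid binding protein gene. Kbtbd11 was at 38.4, 40.5 and 39.9 CPM in CTR KD and at 27.9, 25.3 and 26.9 CPM in YAP KD. All 3 fell upon YAP KD, with log2 fold changes of -0.57, -0.93 and -0.42 (edgeR adjusted p = 0.000281, 0.00011 and 0.000298). They were picked for following Slc16a9 in these same libraries, so their fall and its p-values are no independent evidence. Upon YAP OE they were at 0.11, 0.16 and 0.08, none of them called, beside 0.23 for Slc16a9. Between the controls they were at -0.03, -0.04 and -0.12, also not called, beside -0.52 for Slc16a9. The 12 points of each correlation share libraries and the 4 group means, and no test was made of them.

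**Figure D5:**
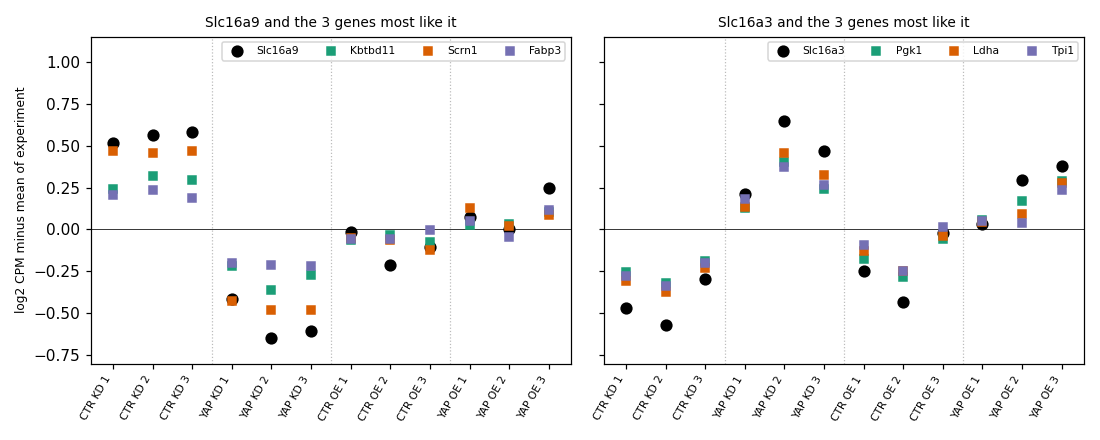
Log2 CPM minus the mean of the experiment in each of the 12 libraries for Slc16a9 (left) and Slc16a3 (right, black circles) with the 3 genes most like each (squares), dotted lines parting the groups. Slc16a9 and its 3 genes are high in CTR KD and low in YAP KD (r from 0.979 to 0.986), and Slc16a3, Pgk1, Ldha and Tpi1 are higher in the YAP KD and YAP OE libraries than in their controls (r from 0.978 to 0.991).

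The genes next to both members on the chromosome were examined for the same pattern. Slc16a9 spans chr10:70245276-70285951, and Fam13c begins 154021 bases beyond its end. Fam13c was at 4.99, 5.46 and 5.55 CPM in CTR KD and at 3.06, 3.26 and 2.96 CPM in YAP KD, a fall of the same direction as that of Slc16a9 (log2 fold change -0.79, SE 0.0893, edgeR adjusted p = 0.0015). With YAP OE it rose, at 8.17 ± 0.263 CPM beside 5.96 ± 0.248 in the control, which is 0.46 on the log2 scale (SE 0.0731, edgeR adjusted p = 0.00272). The other neighbours of Slc16a9 did not pass in either experiment, with Phyhipl at -0.30 (SE 0.0888, edgeR adjusted p = 0.0868), Ank3 at -0.21 and Ccdc6 at -0.13 upon YAP KD. The nearest tested genes on either side of Slc16a3, which were Ccdc57, Fasn, Csnk1d and Tex19.2, had log2 fold changes between -0.03 and 0.06 upon YAP KD and between -0.11 and 0.11 upon YAP OE, and none was called.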

How the data were processed

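RNA of 12 libraries in 4 groups of 3, as the labels give them, was analysed. Per the submitters' notes and the methods, the authors aligned reads with STAR to mm10 and counted them per RefSeq gene with RSEM, then used edgeR. Tool versions and strandedness are not given in the sources used here. The deposited expected counts are not normalized and split reads shared by genes. The authors' TPM values, deposited beside them, are scaled for length and served only in alternative fits. The deposited FPKM values were not used. The mean transcript length, in bases, is also as deposited by the authors.

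Expected counts were rounded, genes were kept by filterByExpr, and each comparison was fitted on its own 6 libraries with TMM factors and the edgeR 4.0.16 quasi-likelihood F test in R 4.3.3 (two-sided, Benjamini-Hochberg over all genes kept, threshold 0.05). The SE is the absolute log2 fold change over the square root of F. Log2 mean length was tested with limma 3.58.1. Per the labels, the 3 libraries of a group come from independent experiments. CPM in the text used TMM factors over all 12 libraries. Both kinds of fit were tested on simulated data with known changes. Every simulated gene had the same set spread between libraries, so that check does not cover genes with a wider spread.

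The members and all gene lists were chosen with earlier results of these data known. The members' p-values are not given in the comparison of controls either, since its libraries served in their choice. Genes named are the members, Yap1, the list genes, the 2 nearest tested genes on each side of Slc16a9 and Slc16a3, and the 3 genes most like each over 12 libraries. A list of Slc16 genes outside the members is not reported here. Promoter windows and coordinates come from RefSeq tables of GRCm38.p6. Alternatives were other library factors, filters, DESeq2 1.42.0, 1 fit of all libraries, the replicate number as a block, log2(TPM + 0.1) or log2(TPM + 1) with limma, and each library left out. Samples with the same number did not deviate together (correlations from -0.42 to 0.09), so the main fits have no block. Some with unlike numbers did, such as YAP KD replicate 1 with CTR KD replicate 2 (0.45). CTR OE replicate 1 with CTR KD replicate 2 was at 0.34. Whether such libraries shared a batch is not given and was not tested.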

Additional observations from a re-analysis of the deposited data

How the results depend on the processing

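The 2 calls among members upon YAP KD held in all 10 alternatives and with each of the 6 libraries left out, where 2 members were called throughout. Those members were picked on these same libraries, so nothing is read from that. The other counts moved with the setting. Genes called upon YAP KD (802) were 1293 in 1 fit over all 12 libraries, 47 on log2(TPM + 0.1), 74 on log2(TPM + 1) and 298 to 1019 with a library left out. Upon YAP OE (316 genes) the count was 556 without a filter, 68 and 87 on the TPM scales and 154 to 327 with a library left out, and the share of calls that were higher went from 77.8% to 94.1% and 93.1% on TPM. The single member called there became 0 with DESeq2, with 1 fit over all libraries and on both TPM scales, and 0 to 1 with a library left out. Between the controls (108 genes) the count was 170 with DESeq2, 202 with 1 fit, 24 and 40 on TPM (share higher 83.3% and 80%, against 62%) and 20 to 420 with a library left out, and the members called (2) were 1 with upper-quartile factors or a minimum of 1 CPM, 0 on both TPM scales and 0 to 2 with a library left out. Genes with a changed mean length were 4 upon YAP KD when tested in bases, 0 to 5 with a library left out, and 1 to 7 upon YAP OE. With the replicate number as a block, which the check of pairing did not support as a pairing, 193 genes were called upon YAP KD, 280 upon YAP OE and 37 between the controls, where 1 member, Slc16a3, was called, and 0 genes had a changed length upon YAP OE. The cause of these moves was not tested.

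The sign turned for members that were not called. With a library left out it turned upon YAP KD for Slc16a1 (-0.018 to 0.011), Slc16a7 (-0.064 to 0.28) and Slc16a11 (-0.26 to 0.011), and upon YAP OE for Slc16a7 (-0.041 to 0.47), Slc16a13 (-0.073 to 0.091) and Slc16a14 (-0.091 to 0.15). Between the controls Slc16a1 (0.0039) was at -0.0043 with upper-quartile factors, -0.0015 without a filter, -0.0017 in 1 fit and from -0.0097 (without CTR KD replicate 2) to 0.021 with a library left out. Slc16a14 (0.02) was at -0.022 and -0.0043 on the TPM scales and from -0.18 (without CTR KD replicate 2) to 0.24 with a library left out, and Slc16a6 (0.0092) from -0.054 (without CTR KD replicate 1) to 0.069. On TPM, Fam13c missed the threshold upon YAP KD at log2(TPM + 0.1) and on both scales upon YAP OE, and Ldha, Slc2a1, Egln3, Pgk1 and Ero1l missed it in both experiments on both scales, as did Pkm, Pdk1, Bnip3, P4ha1, Higd1a, Slc43a1, Slc7a6, Kbtbd11, Fabp3 and Tpi1 upon YAP KD, and Ldha and Mpc1 between the controls. The levels of Slc16a7, Slc16a11 and Slc16a14 are limited by their 7 to 30 counts.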
